A study of Mus musculus with 2 samples.

Results

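The CD4 T cells of the dorsal meninges numbered 150 of the 5816 cells kept from a Sham and a TBI single-cell library, 64 of 2043 in Sham and 86 of 3773 in TBI. They were selected on their own UMIs (unique molecular identifiers, each standing for 1 captured transcript). A cell needed at least 2 UMIs in total of the CD3 genes Cd3d, Cd3e and Cd3g and at least 1 UMI of Cd4, Cd40lg or Izumo1r. It had to hold no UMI of Cd8a, Cd8b1, Cd79a, C1qa, Il23r or Il17re, which mark CD8 T cells, B cells, macrophages and type 17 or γδ lymphocytes. The levels of these 12 genes are therefore part of the definition and no result.

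The study asked how the cells of the meninges, the membranes around the brain, respond to a mild closed-skull traumatic brain injury (TBI). Each library pooled the dorsal meninges of 5 male wild-type C57BL/6 mice (C57BL/6J in the methods), 10 weeks of age (also labelled 10 to 12 weeks), taken 1 week after TBI or after a Sham procedure. Live single cells were sorted without any marker of cell type, and the dorsal tissue did not hold the site of impact. With 1 pooled library in each group, a difference between Sham and TBI has no replicate and is given without a test, and every interval below covers counting error alone. Fewer cells of a kind and less RNA in each cell cannot be told apart in sums over a library.

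CD4 T cells recognise peptides on MHC class II molecules through an αβ T cell receptor, the CD3 complex and the coreceptor CD4, and they act mainly by cytokines and by surface ligands such as CD40 ligand. They fall into naive cells that circulate through lymph nodes, memory cells that can stay in a tissue, regulatory T cells (Tregs) under Foxp3, and helper types such as those led by Tbx21 (Th1), Gata3 (Th2) and Bcl6 (follicular helper). The meninges hold such cells as part of the immune surveillance of the borders of the brain.

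The CD4 T cells made up 3.13% (95% binomial interval, Clopper-Pearson, 2.42 to 3.98) of the Sham cells and 2.28% (1.83 to 2.81) of the TBI cells. Among all cells with at least 2 CD3 UMIs they were 64 of 158 in Sham (40.5%, 32.8 to 48.6) and 86 of 264 in TBI (32.6%, 27.0 to 38.6). The intervals of the libraries overlapped on both scales. Members with a Cd4 UMI made up 1.86% (1.32 to 2.54) of the Sham and 0.928% (0.647 to 1.29) of the TBI cells, a description only, since Cd4 is a gene of the rule. A further 55 and 99 of the CD3 cells held no UMI of any CD4 or CD8 gene in Sham and TBI, of which 41 and 72 met every other condition of the rule. The members held 276238 UMIs in Sham and 355913 in TBI. A member held 818 to 26231 UMIs in Sham, with a median of 3776, and 523 to 28432 in TBI, with a median of 3284. The median number of genes was 1568.5 and 1412.5, and mitochondrial genes took a median of 1.38% and 1.76% of the UMIs. A count of 3 UMIs, the limit that a count of 0 allows, was worth 10.9 CPM (counts per 1000000 UMIs) in the Sham sum and 8.43 CPM in the TBI sum. No doublet caller was run. The libraries shared 20 barcodes, 14 of them among the filtered cells of both, and no member had the barcode of a filtered cell of the other library.

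Few cells lay close to the CD3 limit. Exactly 2 CD3 UMIs were held by 0 members in Sham and 2 in TBI, and 3 and 2 cells stayed outside with exactly 1, against a median CD3 total of 15 and 12 among the members. The other limit was met by many cells with a single molecule, since 18 Sham and 35 TBI members held exactly 1 UMI of the 3 positive genes, and 41 and 72 cells that met all other conditions held none. Cd4, the coreceptor gene, was seen in 38 of 64 Sham members (59.4%, 46.4 to 71.5) and in 35 of 86 TBI members (40.7%, 30.2 to 51.8). Cd40lg, which encodes CD40 ligand, was seen in 42 and 48 members, and Izumo1r, which encodes folate receptor 4, a protein of regulatory and anergic T cells, in 23 and 41. Izumo1r was the sole positive gene of 6 Sham and 21 TBI members. A UMI of Cd4 was also found in 8.31% of Sham and 10.3% of TBI macrophages, and in 0 of 447 and 3 of 424 B cells. T cells that carried a CD8 gene held a Cd40lg UMI in 4 of 36 (Sham) and 5 of 68 (TBI) cells and an Izumo1r UMI in 2 of 36 and 10 of 68.

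The general T cell genes were present. Trac, the constant region of the αβ receptor α chain, was detected in 42 of 64 Sham members (65.6%, 52.7 to 77.1) and 47 of 86 TBI members (54.7%, 43.5 to 65.4), in no B cell, and in 0% and 0.132% of macrophages. Lck, the kinase that starts receptor signalling, was seen in 95.3% and 84.9%, Thy1 in 90.6% and 81.4%, and the costimulatory receptor gene Cd28 in 62.5% and 59.3%. A UMI of a receptor β variable gene (Trbv) was found in 59 of 64 Sham and 81 of 86 TBI members, spread over 21 and 20 of 35 genes.

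Other lineages were also present in these cells. The 7 natural killer (NK) and NKT cell markers summed to 93 UMIs in Sham and 338 in TBI (337 and 950 CPM), led by Tyrobp (39) in Sham and Fcer1g (120) in TBI. Ncr1 and Eomes were at 0 in Sham, and none of the 7 was at 0 in TBI. The 8 macrophage markers summed to 580 and 1277 UMIs, of which Cd74, the MHC class II invariant chain, gave 555 and 1222, and 1 cell in each library held 489 and 600 of them. The 4 hemoglobin genes summed to 855 UMIs in Sham, 454 of them in 1 cell, and to 67 in TBI. B cell markers came to 65 and 94 UMIs, nearly all Ighm (63 and 83). The 3 fibroblast markers had 1 and 56 UMIs, the 4 dendritic cell markers 2 and 24, and the 9 type 17 or γδ markers 7 and 30 with Tcrg-V6, Cd163l1 and Il17a at 0 in both. Endothelial markers had 17 and 30 UMIs, neutrophil markers 4 and 8, mast cell markers 0 and 4, and the 9 group 2 innate lymphoid markers 100 and 43, led by Gata3 (49 and 37). Apart from leaving such cells out, the part of these transcripts in the differences between the libraries was not tested.

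NK-type transcripts were uneven across the ways in which a cell had entered the class, shown here for genes chosen after their values were seen. Klrb1c, which encodes the NK receptor NK1.1, stood at 11.1 CPM in the 38 Sham members with a Cd4 UMI, 109 CPM in the 20 with Cd40lg and no Cd4, and 89.8 CPM in the 6 with Izumo1r alone. The matching values in TBI were 10.9 CPM in 35 cells, 309 CPM in 30 cells and 146 CPM in 21 cells. Klrb1c rested on 2, 8 and 2 UMIs in Sham and on 2, 32 and 10 UMIs in TBI, and 2 UMIs lie below the limit of 3 counts. Trgv2, a γ chain variable gene of the T cell receptor, followed the same order in TBI with 70.7, 424 and 322 CPM. In Sham it stood at 27.7, 191 and 44.9 CPM (5, 14 and 1 UMIs). Trac did not show this order, with 393, 368 and 359 CPM in Sham and 256, 251 and 322 CPM in TBI. At least 2 UMIs in total of Tyrobp and Fcer1g, a pair of signalling adaptor genes of NK and myeloid cells, were held by 1 of 38, 2 of 20 and 1 of 6 Sham cells, and by 3 of 35, 6 of 30 and 5 of 21 TBI cells. The TBI cells with these adaptors had Klrb1c at 413 CPM and Trac at 181 CPM, and the other TBI cells had Klrb1c at 43.1 CPM and Trac at 291 CPM. In Sham, Klrb1c stood at 242 CPM in the 4 cells with these adaptors and 23.9 CPM in the other 60, while Trac was the other way round, at 484 CPM against 374 CPM.

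**Figure D1:**
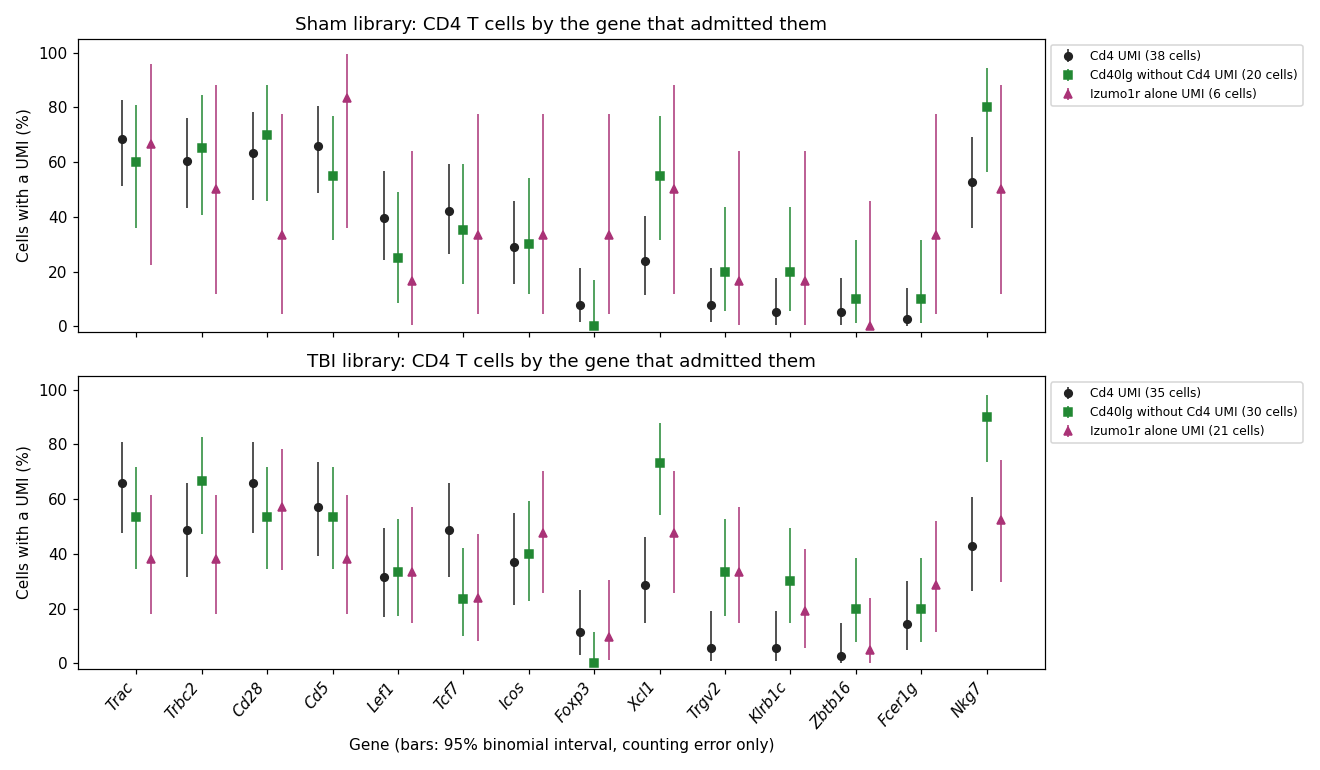
Share of CD4 T cells with at least 1 UMI of each gene, in percent, for the Sham (top) and TBI (bottom) library, split into cells with a Cd4 UMI, cells with Cd40lg and no Cd4, and cells with Izumo1r alone; bars are 95% binomial intervals for counting error. Foxp3 was absent from the 20 Sham and 30 TBI cells admitted by Cd40lg without Cd4, while Klrb1c and Xcl1 were found in a larger share of them than of the cells with a Cd4 UMI in both libraries.

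Most CD4 T cells carried transcripts of effector or memory cells. S100a6, a calcium-binding protein gene raised in memory T cells, was found in 70.3% of Sham and 69.8% of TBI members, against 3.80% and 7.08% of B cells. Cxcr6, a chemokine receptor gene of tissue-resident T cells, was found in 40 of 64 (62.5%, 49.5 to 74.3) and 48 of 86 (55.8%, 44.7 to 66.5) members, at 550 and 604 CPM, and in under 1% of B cells and macrophages. After each cell was thinned to 1000 UMIs, which 61 Sham and 83 TBI members had, the share with Cxcr6 was 41.0% in both libraries. Itga1 and Rgs1, further genes of resident T cells, were seen in 18.8% and 18.8% of Sham and in 24.4% and 25.6% of TBI members. Itgae, which encodes the integrin CD103, was seen in 1 and 2 cells. Crip1 was detected in 89.1% and 86.0% of members but also in 79.0% and 76.2% of B cells, so its detection does not separate the classes here.

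Naive genes were sparser. Lef1 and Tcf7, transcription factor genes of naive and central memory T cells, were found in 32.8% and 39.1% of Sham members and 32.6% and 33.7% of TBI members. B cells held a Lef1 UMI in 6.49% and 9.20% and a Tcf7 UMI in at most 0.24%. Ccr7, the lymph node chemokine receptor, was seen in 7 Sham and 8 TBI members (10.9% and 9.30%), below the 43.4% and 36.3% of B cells. A cell was called positive for naive genes with 1 UMI of any of 6 naive genes, Ccr7 and Lef1 among them, and for effector genes with at least 3 UMIs in total of S100a4, S100a6, Lgals1, Crip1, Anxa2, Itgb1 and Ahnak. Effector genes alone were positive in 27 Sham and 36 TBI members, both sets in 33 and 43, naive genes alone in 1 and 4, and neither in 3 and 3. The naive call did not separate the members from cells that are not T cells: 53.1% and 54.7% of members met it, against 62.4% and 59.4% of B cells and 64.1% and 68.8% of macrophages. CD8 T cells, 28 in Sham and 52 in TBI, met it in 75.0% and 46.2%. B cells also use some of these genes, Ccr7 among them, so the call is given as a count and not as a naive class. The effector call was met by 93.8% and 91.9% of members, against 53.9% and 53.8% of B cells and 57.6% and 64.3% of macrophages. CD8 T cells met it in 92.9% and 96.2%, so it does not set the CD4 class apart from them. At 1000 UMIs a cell, the effector call was met by 77.0% and 68.7% of members, 20.9% and 22.2% of B cells and 27.5% and 27.8% of macrophages. At that depth 68.0% and 82.4% of CD8 T cells met it. The order of the groups depended on depth. In cells thinned to 1000 UMIs, effector genes alone were positive in 38 of 61 and 47 of 83, both in 9 and 10, naive genes alone in 6 and 6, and neither in 8 and 20. The cells positive for both sets were thus fewer at the lower depth, and naive genes alone marked no more than 6 cells of a library at either depth.

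**Figure D2:**
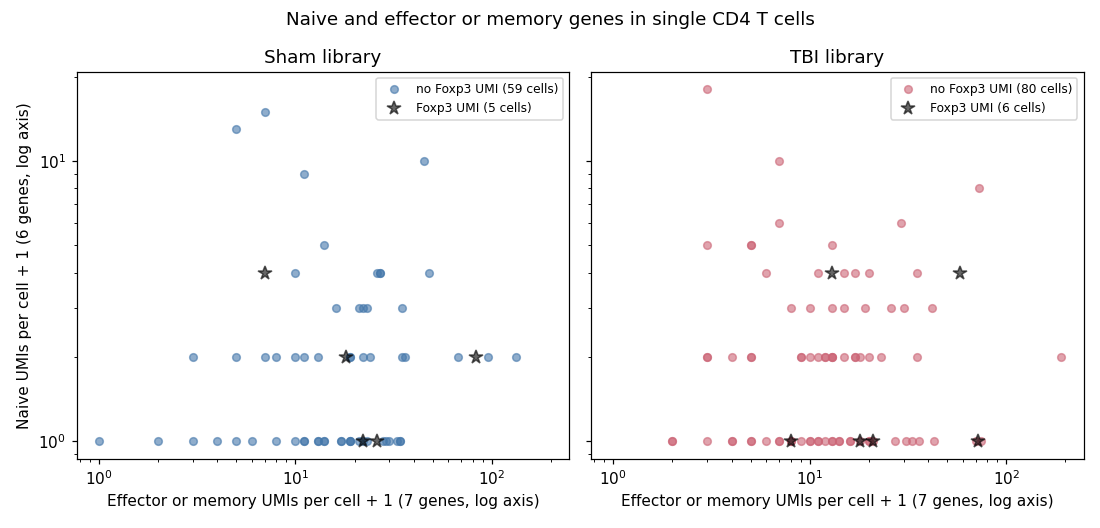
Each point is 1 CD4 T cell, with its UMIs of the 7 effector or memory genes plus 1 on the x axis and its UMIs of the 6 naive genes plus 1 on the y axis, both on log axes; stars are cells with a Foxp3 UMI. The median cell held 18 effector UMIs in Sham and 12 in TBI, with 1 naive UMI in each, so most points lie low and to the right.

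Genes of the Th1 program were found in many members. Cxcr3, a chemokine receptor gene of Th1 and effector T cells, was found in 46 of 64 Sham members (71.9%, 59.2 to 82.4) and 60 of 86 TBI members (69.8%, 58.9 to 79.2). Macrophages held it in 7.72% and 6.18%, B cells in 0.447% and 0.236%, and CD8 T cells in 71.4% and 55.8%. Tbx21, the Th1 master regulator, was found in 21 and 28 members (32.8% and 32.6%), in 0.224% and 0% of B cells and in 0% and 0.132% of macrophages. Over both libraries, Cxcr3 was found in 39 of the 49 cells with Tbx21 and in 67 of the 101 cells without it. Ifng, the Th1 cytokine, was found in 5 of 64 Sham and 18 of 86 TBI members, with 13 and 44 UMIs, of which 17 in TBI came from 1 cell. After thinning, these shares were 1.64% and 4.82%, close to the level of single cells. Ccl5, a chemokine gene of memory and cytotoxic T cells, was in 39.1% and 52.3% of members and in 85.7% and 88.5% of CD8 T cells.

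Genes of the other helper types were scarce or incomplete. Gata3 was found in 26 of 64 and 29 of 86 members (40.6% and 33.7%), but Gata3 is also used by T cells in general, and CD8 T cells held it in 21.4% and 17.3%. Of the 49 members with Tbx21, 22 also held Gata3, as did 33 of the 101 without Tbx21. Il13 had 38 UMIs in Sham, 37 of them in 1 cell, and 3 in TBI. Il4 was seen in 3 and 5 cells, and Il5, Il17rb and Ptgdr2 were at 0 in both libraries. The Th17 cytokine genes Il17a, Il17f and Il22 were at 0 in all 150 cells, which by the limit of 3 counts allows a share of cells with a UMI of up to 4.69% in Sham and 3.49% in TBI. The class excluded Il23r and Il17re, so cells of the type 17 program had been removed in part by the rule. Bcl6 was seen in 1 and 2 cells, Cxcr5 in 2 and 1, and Il21 in 2 and 0. Pdcd1, the gene of the inhibitory receptor PD-1, was seen in 17 Sham and 14 TBI members (26.6%, 16.3 to 39.1, and 16.3%, 9.20 to 25.8).

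A Foxp3 UMI marked 5 Sham members (7.81%, 2.59 to 17.3) and 6 TBI members (6.98%, 2.60 to 14.6), with 12 and 14 UMIs, and no CD8 T cell or B cell. Of these 11 cells, 8 held Izumo1r, 1 held Cd40lg, 6 held Ctla4, an inhibitory receptor gene of Tregs, and 7 held Ikzf2, which encodes the Treg factor Helios. The 139 cells without Foxp3 held these genes in 56, 89, 10 and 24. Izumo1r and Cd40lg are genes of the rule, so a Foxp3 cell without Izumo1r had to enter by Cd4 or Cd40lg. Cxcr3 was found in 4 of the 11 and 102 of the 139. Il10 was at 0 in both libraries, and Il2ra, the interleukin-2 receptor α chain, in 5 and 8 members (7.81% and 9.30%), against 11.2% and 9.20% of B cells. The Treg share is a share of cells with a UMI, and cells that express Foxp3 with no captured transcript are not in it.

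**Figure D3:**
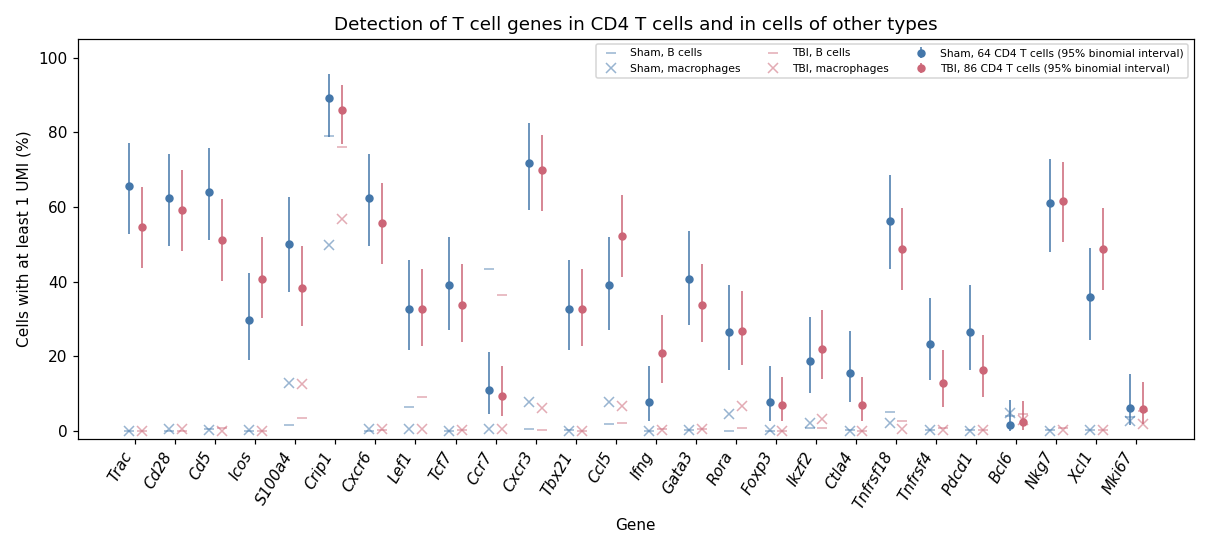
Share of CD4 T cells with at least 1 UMI of each of 26 genes, in percent, in Sham (blue, 64 cells) and TBI (red, 86 cells), with 95% binomial intervals for counting error; dashes are B cells and crosses macrophages of the same library. Cxcr3, Cxcr6 and Nkg7 lie far above both background classes, Crip1 lies close to B cells, and Ccr7 lies below B cells and above macrophages.

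Receptor variable genes varied strongly between cells, as each T cell rearranges its own. Trbv13-2 was the most often seen, in 15 Sham and 25 TBI members with 92 and 150 UMIs. Trbv3 had 239 UMIs in 11 Sham members, up to 91 in 1 cell, and 31 UMIs in 4 TBI members. Trbv29 was in 8 and 7 members and Trbv1 in 5 and 9. More than 1 Trbv gene was seen in 20 and 18 members. A receptor α variable gene was found in 43 Sham and 47 TBI members. Trgv2 was found in 8 and 19 members, with 20 and 79 UMIs. Mki67 or Top2a, a pair of proliferation genes, was found in 6 (9.38%) and 9 (10.5%) members.

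The comparison with CD8 T cells asked which genes separate the CD4 class beyond the genes of the rule. The 28 Sham and 52 TBI CD8 T cells held 146204 and 273271 UMIs, and both classes occur in both libraries, so the libraries served as the replicates of a class difference. UMIs were summed for each of 4 classes in each library and tested with edgeR's quasi-likelihood test over 9265 genes with Benjamini-Hochberg adjustment, with a library term and 3 residual degrees of freedom. The cells of the class were chosen on 12 genes, and a gene that goes with Cd4, Cd40lg or Izumo1r in the same cells is not independent of that choice. Of the 9265 genes, 9 were higher in CD4 T cells (0.0971%) and 6 were lower (0.0648%) at an adjusted p under 0.05, and 533 had an unadjusted p under that threshold. DESeq2 called none, with 152 genes at an unadjusted p under the same threshold. In edgeR, a fit of the 2 classes alone called 40 higher and 38 lower, and no filter on low sums 42 and 44. Without cells with another lineage marker the counts were 14 and 11, and at a filter of 50 UMIs 1 and 2.

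Among the 9 higher genes were 3 costimulatory receptors (Tnfrsf4, Tnfrsf18 and Icos) and a pair of transcription factors (Ikzf2 and Maf). Tnfrsf4, which encodes the costimulatory receptor OX40 (chr4:156013843-156016612 in GENCODE on GRCm38), had 87 UMIs (315 CPM) in Sham and 27 UMIs (75.9 CPM) in TBI CD4 T cells. CD8 T cells held 1 UMI (6.84 CPM) and 2 UMIs (7.32 CPM), so both CD4 sums lay above both CD8 sums and the CD4 sums differed between the libraries. The log2 difference was 4.31 (SE 0.65), edgeR's adjusted p was 0.00619, and 10 of 11 alternative settings kept it past the threshold, all but DESeq2 (0.552). Icos, the inducible costimulator, stood at 145 and 124 CPM against 20.5 and 25.6 CPM, a log2 difference of 2.39 (SE 0.42, edgeR adjusted p 0.0254). Tnfrsf18, which encodes GITR, stood at 329 and 284 CPM against 109 and 95.1 CPM, a difference of 1.51 (SE 0.29, edgeR adjusted p 0.0447). Ikzf2 differed by 2.13 (SE 0.39, edgeR adjusted p 0.0391) and Maf, a transcription factor gene of helper and regulatory T cells, by 1.95 (SE 0.38, edgeR adjusted p 0.0456). With the 11 Foxp3 cells left out, edgeR's adjusted p was 0.00926 for Tnfrsf4, 0.0410 for Icos, 0.102 for Tnfrsf18, 0.262 for Ikzf2 and 0.125 for Maf, while the log2 differences of these last 3 genes were 1.28, 1.59 and 1.73. With the class limited to cells with a Cd4 UMI, it was 0.0010, 0.0938, 0.126, 0.0219 and 0.0462 in the same order of genes, with log2 differences of 2.18 for Icos and 1.37 for Tnfrsf18. Of the 11 alternative settings, Icos passed in 8, Ikzf2 in 7, Tnfrsf18 in 6 and Maf in 4.

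Tnfrsf4 and Tnfrsf18 are neighbours on chromosome 4, and their promoter windows are shown because both genes were higher in the CD4 class. The windows run from 250 bases before to 50 after the RefSeq start (GRCm38.p6, plus strand), at chr4:156013445-156013744 and chr4:156026072-156026371, with starts 12627 bases apart. RefSeq places the start of Tnfrsf4 before the start of the GENCODE gene, so its whole window lies ahead of that gene model. Capitals mark GGAAA, the core bound by NFAT factors, or TTTCC on the other strand.
Tnfrsf4: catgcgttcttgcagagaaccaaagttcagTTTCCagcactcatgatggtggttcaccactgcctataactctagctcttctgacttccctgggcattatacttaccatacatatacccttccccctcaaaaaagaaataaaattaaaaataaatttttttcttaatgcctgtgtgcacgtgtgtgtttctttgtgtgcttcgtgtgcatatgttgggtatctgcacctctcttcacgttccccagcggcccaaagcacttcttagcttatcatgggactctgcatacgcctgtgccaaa
Tnfrsf18: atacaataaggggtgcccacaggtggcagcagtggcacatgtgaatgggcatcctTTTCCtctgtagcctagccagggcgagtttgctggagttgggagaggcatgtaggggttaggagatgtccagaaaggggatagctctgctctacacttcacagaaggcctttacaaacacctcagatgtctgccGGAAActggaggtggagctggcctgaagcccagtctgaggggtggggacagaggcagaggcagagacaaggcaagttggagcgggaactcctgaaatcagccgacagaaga
The Tnfrsf4 window held 1 such match, on the other strand, and the Tnfrsf18 window 2, 1 on each strand. GGAAA occurs on either strand in 61.3% of the 32851 RefSeq promoter windows of this length. TGACTCA, the AP-1 site, searched on both strands and found in 5.20% of windows, was in neither.

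Among the lower genes were Nkg7 and Gzmm, both of cytotoxic cells. Nkg7, a granule membrane protein gene of cytotoxic cells, stood at 822 and 829 CPM in CD4 T cells and at 1860 and 1958 CPM in CD8 T cells, a log2 difference of -1.28 (SE 0.25, edgeR adjusted p 0.0447). It passed in 6 of 11 alternative settings, with adjusted p-values from 2.85e-06 to 1 and log2 differences from -1.84 to -1.15. Gzmm, the gene of granzyme M, had no UMI in CD4 T cells and 10 and 17 UMIs in CD8 T cells, at least 6.30-fold lower in Sham and 7.38-fold lower in TBI against the limit of 3 counts in each library, and it passed in 5 of 10 alternative settings. Of the 11 cytotoxic genes tested, 10 had an estimate below 0, with a median of -1.28 against 0.02 over all genes, and the only ones past the threshold were Nkg7 (lower) and Ccl4 (higher). The call of Ccl4, an inflammatory chemokine gene, rested on 1 cell in each library, which held 84 of its 109 UMIs in Sham and 133 of 177 in TBI; without the cell with most Ccl4 UMIs in each class and library, the difference was 0.73 (edgeR adjusted p 0.90). Of the 10 Treg genes tested, 3 were higher (Tnfrsf4, Tnfrsf18, Ikzf2) and none lower. Icos was the only 1 of 19 effector or memory genes past the threshold. Of 25 genes that the study grouped by function for T cells after injury, a list picked on these libraries, Trgv2 alone passed. None of the 12 naive, 10 Th1, 7 Th2, 6 Th17, 8 follicular helper or checkpoint, 26 receptor complex, 8 GIMAP, 24 cytokine receptor, 12 cytokine, 21 homing, 43 interferon-induced, 19 early response or 11 cell cycle genes tested passed it. The interferon-induced genes had an estimate above 0 in 6 of 43, with a median of -0.32, against a median of 0.02 over all genes. Macrophage and monocyte genes were above 0 in 0 of 6 (median -1.29), and their part in the interferon-induced values was not tested. The cytokine genes were above 0 in 10 of 12 (median 0.95), the Th2 genes in 6 of 7 (1.57) and the Treg genes in 8 of 10 (1.43).

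Receptor variable genes made up most of the other calls. Trbv13-2 was higher in CD4 T cells (333 and 421 CPM against 54.7 and 98.8 CPM, log2 difference 2.23, SE 0.36, edgeR adjusted p 0.0122) and so was Trgv2 (72.4 and 222 CPM against 0 and 47.6 CPM, 2.43, SE 0.47, edgeR adjusted p 0.0447). With the class limited to cells with a Cd4 UMI, the Trgv2 difference was 0.87 (edgeR adjusted p 0.944) and that of Trbv13-2 was 1.46 (edgeR adjusted p 0.50). Trbv13-2 passed in 8 of 11 alternative settings and Trgv2 in 6. Trbv15 (higher) and Trbv17 (lower) were carried by 1 to 3 CD4 T cells, since a single cell held all 25 Sham UMIs of Trbv15 and single cells held the 13 and 14 UMIs of Trbv17. Among CD8 T cells, 1 cell held all 36 Sham UMIs of Trbv17 and 1 cell held 19 of the 34 in TBI. Without the top cells, the differences were 6.35 for Trbv15 (edgeR adjusted p 0.56) and -6.37 for Trbv17 (edgeR adjusted p 0.44). Trbv12-2 was lower (-3.04), with 10 and 6 UMIs against 33 and 49, of which single CD8 T cells held 19 and 20. Without the top cells the Trbv12-2 difference was -2.36 (edgeR adjusted p 0.087). The remaining calls were Grap2, a T cell signalling adaptor gene (-1.55, past the threshold in 4 of 11 alternative settings), and Fcgrt, the neonatal Fc receptor gene (-4.12, with 2 and 1 UMIs against 8 and 29, past the threshold in 8 of 11 alternative settings). Without cells holding a UMI of another lineage marker, the Fcgrt difference was -4.75 (edgeR adjusted p 0.505).

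**Figure D4:**
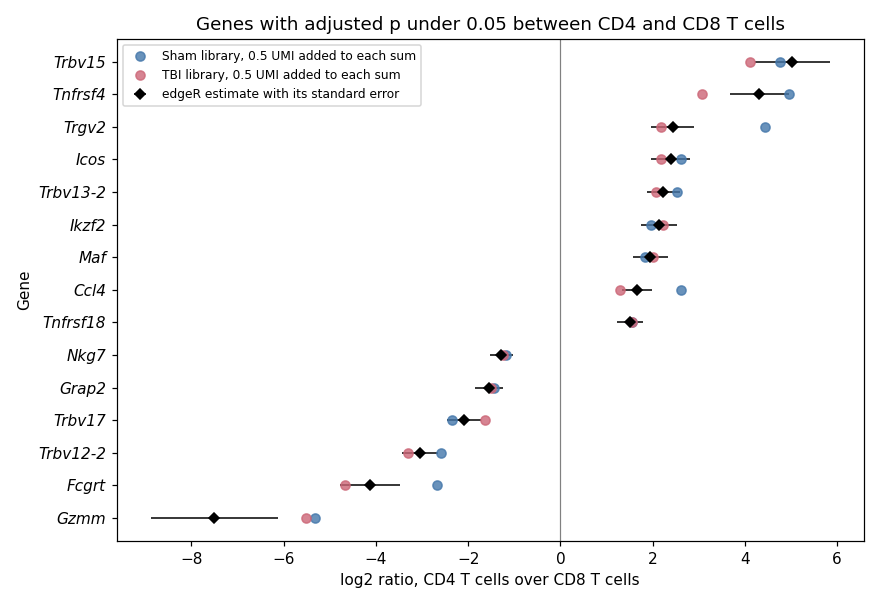
log2 ratio of CD4 over CD8 T cells for the 15 genes past an adjusted p of 0.05 (edgeR); diamonds are the estimates with standard errors, and circles the ratios within the Sham and the TBI library with 0.5 UMI added to each sum. Both circles lie on the same side of 0 for all 15 genes, and for Trgv2, Ccl4, Tnfrsf4 and Fcgrt they lie more than 1 log2 unit apart.

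The comparison with type 17 or γδ lymphocytes (29 Sham and 39 TBI cells with a UMI of Il23r or Il17re) gave 369 genes higher in CD4 T cells (3.98% of 9265) and 444 lower (4.79%). That class was mixed, since 3 and 4 of its cells held at least 10 UMIs of Ttr, a gene of the choroid plexus, and CD3 was no part of its rule. Limited to its 16 and 24 cells with at least 2 CD3 UMIs, edgeR called 164 higher and 138 lower of 7448 genes tested. Of the 11 cytotoxic genes, 7 were higher in CD4 T cells under both versions of that class. Nkg7, Klrd1, Ctsw, Gzma and Ccl4 were among them both times. For Gzma, 1 cell held 90 of the 93 TBI UMIs, and Sham had 2. For Ccl4, single cells held 84 of 109 UMIs in Sham and 133 of 177 in TBI. GIMAP genes, small GTPases of lymphocyte survival, were higher in 8 of 8, and in 6 of 8 against the CD3 cells alone. Il1r1, Tmem176a and Tmem176b were lower both times. Xcl1, the gene of lymphotactin, had 107 UMIs in Sham and 301 in TBI CD4 T cells and none in the type 17 class, at least 19.5-fold and 48.9-fold higher. Trdv4, a δ chain variable gene, had none in CD4 T cells against 212 and 378 UMIs, at least 129-fold and 258-fold lower. Others with the largest differences were Cd163l1 and Tcrg-V6, both at 0 in CD4 T cells, and, higher in CD4 T cells, the chemokine gene Ccl1 (40 and 103 UMIs against 0), the signalling adaptor gene Sh2d1a (58 and 54 against 0), Gm2682, Pclaf, Gzma and the variable genes Trbv29, Trbv13-1, Trbv19 and Trbv16. Clu, Kl, Sostdc1, Slc22a17, Wfdc18, Sbsn and Fscn1 were lower as well, and of these 7 only Clu had enough UMIs to be tested against the CD3 cells alone. Wfdc18 and Sbsn had no UMI in either class in Sham, and Fscn1 none in either class in TBI, so each of these 3 rests on 1 library. CD3 genes chose the CD4 T cells and not the other class, so the variable genes of the αβ receptor are no finding here.

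Set against Il1rl1 cells without CD3 (113 Sham and 137 TBI cells, taken for group 2 innate lymphoid cells), 454 genes were higher in CD4 T cells (4.9% of 9265) and 602 lower (6.5%). Only 52 and 60 of those cells held Gata3, and mast cell and macrophage genes (Cma1, Cpa3, Cd209d) were among the genes higher in that class. Against the Gata3 cells alone, 268 genes were higher and 200 lower of 7448 tested. Of the 10 Th1 genes, 8 were higher in CD4 T cells, and 7 against the Gata3 cells, Tbx21, Ifng and Cxcr3 among them both times. Il17rb and Pparg were lower both times. Gata3 was lower against the whole class, and against the Gata3 cells its direction was fixed by how they were chosen. Xcl1 was at 0 in the Il1rl1 cells, against its 107 and 301 UMIs in CD4 T cells, and Nkg7 had 227 and 295 UMIs against 0 and 2. Sh2d1a, Gm2682, Cd28, Trbv1, Trbv3, Trbv13-3, Trbv19 and Trbv29 completed the 10 largest in that direction, and those in the other included Ccl17, Retnla, Hpgd, Cma1, Slc7a8, Rtl5, Cpa3, Cd209d and Hepacam2. In the Il1rl1 cells Retnla had 204 UMIs in Sham and 2 in TBI, Cma1 2 and 126, and Cpa3 6 and 74. Each of these genes thus rests mostly on 1 library. Slc7a8 was also lower against the Gata3 cells. CD3 genes chose the members, so genes of the T cell receptor and its signalling, Cd28 and the variable genes included, are no finding in this comparison.

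Between Sham and TBI, 3170 genes had at least 30 UMIs over the CD4 T cells of both libraries. Of these, 77 had a log2 ratio of TBI over Sham of at least 1 (2.43%) and 50 of at most -1 (1.58%), around a median of 0.01. These numbers depended on the gate: they were 43 and 77 with Cd4 alone as the positive gene, 22 and 25 of them shared with the first, and 22 and 32 without cells holding another lineage marker, 4 and 12 of them shared. In 19 of the 127 genes past this fold, 1 cell held at least 50% of the UMIs of the higher library, and 103 stayed past it without the cell with the most UMIs in each library. The medians of most lists lay near that of all genes. The median log2 ratio was -0.19 over 12 naive genes, -0.16 over 18 effector or memory genes, -0.21 over 10 Treg genes and -0.19 over 26 receptor complex genes, against 0.02 over the 6650 genes with at least 10 UMIs, of which 51.7% lay above 0. The Treg median was -0.93 with Cd4 alone as the positive gene and -1.02 without other-lineage cells.

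The cytotoxic list had the highest median. All 11 cytotoxic genes had a ratio above 0, with a median of 0.99, and 5 were past a log2 ratio of 1 (Gzma, Gzmb, Gzmk, Prf1, Eomes), none of them in more than 7 cells of a library and the last pair at 0 in Sham. Among all 6650 genes with at least 10 UMIs, 452 (6.8%) were past this ratio. Gzma, the gene of granzyme A, had 2 UMIs in Sham and 93 in TBI, 90 of them in 1 cell, and its log2 ratio of 4.86 became 0.86 without the top cells. Gzmk had 2 and 49 UMIs in 2 and 7 cells, 35 of them in 1 cell. Klrd1, the NK receptor subunit CD94, had 31 and 80 UMIs in 16 and 23 cells (log2 0.99, 95% counting interval 0.39 to 1.65). Of these UMIs, 12 in Sham and 46 in TBI lay in the 4 and 14 cells with the Tyrobp and Fcer1g adaptors. The other cells had Klrd1 at 75.6 CPM in Sham and 122 CPM in TBI. Xcl1 had 107 UMIs in 23 Sham cells and 301 UMIs in 42 TBI cells, up to 25 and 85 in 1 cell (1.12, 0.80 to 1.46). Among members with a Cd4 UMI, Xcl1 stood at 310 CPM in Sham and 277 CPM in TBI, and 124 of the 301 TBI UMIs lay in the 14 cells with the Tyrobp and Fcer1g adaptors. The cells without these adaptors had Xcl1 at 406 CPM in Sham and 636 CPM in TBI. Cd7 had 10 UMIs in 4 Sham cells and 75 in 14 TBI cells (2.48, 1.58 to 3.66). Of these 75 UMIs, 62 lay in the 14 cells with the Tyrobp and Fcer1g adaptors, and the other cells had Cd7 at 35.8 CPM in Sham and 46.7 CPM in TBI. Fcer1g itself had 24 UMIs in 5 Sham cells and 120 in 17 TBI cells (1.93, 1.32 to 2.65). Among cells with a Cd4 UMI, the median over the 8 cytotoxic genes with enough UMIs was -0.09 with 4 of 8 above 0, and the share of members with no Cd4 UMI was 40.6% in Sham and 59.3% in TBI. With cells left out that held a UMI of another lineage marker, the median was 0.36 with 3 of 6 genes above 0.

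Some effector genes were lower in the TBI library. Over the 18 effector or memory genes with at least 10 UMIs, 7 lay above 0, with a median of -0.16. Without cells holding another lineage marker, 9 of 18 lay above 0, with a median of -0.02. S100a10 had 444 and 367 UMIs (log2 -0.64, -0.84 to -0.44), S100a11 355 and 284 (-0.69, -0.92 to -0.46) and Lgals1, which encodes galectin-1, 245 and 210 (-0.59, -0.86 to -0.32). Itgb1, the integrin β1 chain, was higher, with 136 and 234 UMIs (0.42, 0.11 to 0.73). Il7r, the interleukin-7 receptor of naive and memory T cells, had 99 and 72 UMIs (-0.82, -1.28 to -0.37), and Klf2, a factor for exit from tissue, 69 and 52 (-0.77, -1.32 to -0.23). Tnfrsf4 had 87 UMIs in 15 Sham cells and 27 in 11 TBI cells (-2.04, -2.73 to -1.42), and -2.33 without the top cells. Pdcd1 had 50 and 27 UMIs in 17 and 14 cells (-1.24, -1.99 to -0.55). Tnfrsf4 and Pdcd1 were thus found in a minority of the cells of each library, and 1 cell held up to 23 of the 87 Sham UMIs of Tnfrsf4.

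Interferon-induced genes showed no common direction under the main rule, with 22 of 40 above 0 and a median of 0.08. With Cd4 alone as the positive gene, 21 of 37 lay above 0 (median 0.06). Without cells holding another lineage marker, 28 of 35 did (median 0.40). Ifi27l2a had 489 and 323 UMIs (log2 -0.96, -1.17 to -0.76), and Ifi47, an interferon-γ-induced GTPase gene, 92 and 174 (0.55, 0.18 to 0.93). Medians were 0.23 over 10 Th1 genes, 0.54 over 4 Th17 genes, -0.66 over 4 Th2 genes, -0.53 over 8 follicular helper and checkpoint genes, 0.24 over 8 GIMAP genes and 0.20 over 23 cytokine receptor and feedback genes. They were -0.29 over 12 cytokine and ligand genes, -0.15 over 19 homing genes, -0.10 over 16 early response genes and -0.47 over 11 cell cycle genes. With Cd4 alone as the positive gene the medians were -0.36 (Th1), -0.24 (GIMAP) and -3.91 (Th2, 2 genes left), and the early response median lay further below 0 than -0.10. At a minimum of 30 UMIs the Th2 median was -2.30, and as a mean over cells the cell cycle median was 0.40. Without other-lineage cells the cell cycle median lay further below 0 than -0.47. Among 25 genes that the study grouped by function for T cells after injury, picked on these same libraries and so no independent evidence of direction, 19 lay above 0 with a median of 0.22.

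Of the 20 genes with the largest ratios, 10 in each direction, 12 had at least 50% of the UMIs of the higher library in 1 cell. Clec10a, Napsa and Irf8, genes of dendritic cells and other antigen-presenting cells, had 1 and 45, 3 and 29, and 6 and 36 UMIs, and the TBI UMIs came from 4, 3 and 6 cells. The log2 ratio of Irf8 was -0.026 with Cd4 alone as the positive gene and -0.27 without other-lineage cells. Mgp, a matrix gene of fibroblasts, had 2 UMIs in 2 Sham cells and 28 in 17 TBI cells, and moved with the fibroblast markers (1 and 56 UMIs). Lower in TBI were the 4 hemoglobin genes, for example Hbb-bs with 371 UMIs in 51 Sham cells and 38 in 29 TBI cells. The same genes were lower in TBI CD8 T cells (Hbb-bs 49 and 20 UMIs), and the median hemoglobin share over all filtered cells was 0.126% in Sham and 0.012% in TBI. Penk, which encodes proenkephalin, had 155 and 4 UMIs with 144 in 1 Sham cell, and the proliferation gene Birc5 had 27 and 5 with 18 in 1 cell. Cd83 had 29 and 9 UMIs in 3 and 2 cells. Trbv3 (log2 -3.29) was carried by 11 Sham and 4 TBI cells, with up to 91 and 12 UMIs in 1 cell. For 1110038B12Rik and Ipo7, the counts were 5 and 29 and 5 and 27 UMIs, spread over 17 and 21 TBI cells.

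**Figure D5:**
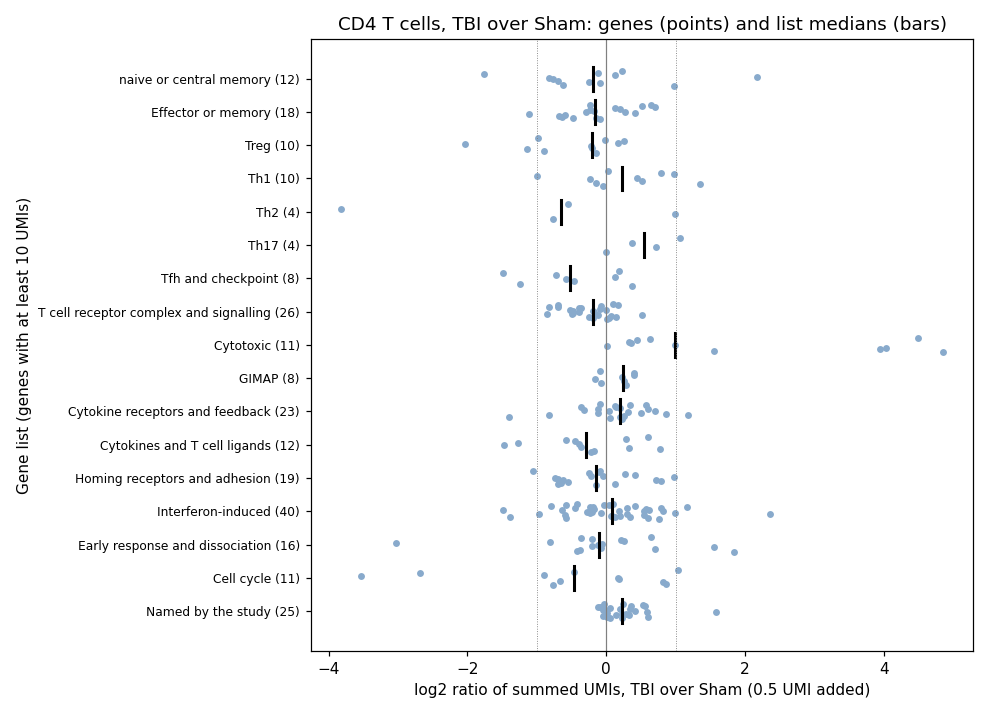
log2 ratio of TBI over Sham of the summed UMIs of CD4 T cells (0.5 UMI added) for each gene with at least 10 UMIs (points) in 17 gene lists, with the list median as a bar; dotted lines mark ratios of 1 and -1. All 11 cytotoxic genes lie at or right of 0 with a median of 0.99, while the other medians lie between -0.66 and 0.54.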

How the data were processed

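The authors deposited 1 matrix of UMI counts per library, whole-number counts per gene and barcode, made from 10x 3′ libraries on the mm10 genome. The version of Cell Ranger differs between the sources: the processing notes name 2.1.1 and the matrix header 3.1.0, and the methods of the publication name another. Per the labels, the submitters also used Seurat 3.9.9 and DESeq2 1.30.0. The Sham and TBI matrices held 2699 and 4349 barcodes with 9527334 and 15011079 UMIs.

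Cells with 150 to 5000 genes, at most 20% mitochondrial and at most 5% hemoglobin UMIs were kept (2043 and 3773). Counts were summed by class and library. Class differences were tested on 8 sums with edgeR 4.0.16 (limma 3.58.1, R 4.3.3; TMM, terms for library and class, genes with at least 20 UMIs, Benjamini-Hochberg threshold 0.05), with DESeq2 1.42.0 as an alternative. The 13 genes of the class rules stayed in the fit and were not counted. The sums are pools of mice, so p-values measure the spread between these sums. TBI over Sham was a ratio of CPM with 0.5 UMI added and exact 95% intervals for counting error, with no test. Shares were also computed on cells thinned to 1000 UMIs (numpy 2.4.6, scipy 1.17.1, matplotlib 3.10.9, Python 3.11.15). The fitting script was tested on simulated data.

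Named genes were members of the lists, the 10 strongest TBI over Sham ratios either way (minimum 30 UMIs), up to 15 called genes either way against CD8 T cells and 10 against each other class with 1 sign in both libraries after 0.5 UMI was added, and genes of the rule. Genes shown by gate gene were chosen after their values were seen. The members and lists were chosen with earlier results of these data known. Alternatives changed the cell filters, the gate, the scaling, the minimum of UMIs and the tool. The stricter versions of the other 2 classes and the values without top cells or adaptor-positive cells were chosen after seeing the data. Values of a few single genes of the lists are not reported here.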

Additional observations from a re-analysis of the deposited data

Results flagged for a closer look

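Lgals3, the gene of galectin-3 and a member of the effector or memory list, moved in opposite directions in CD4 and CD8 T cells. Its log2 ratio of TBI over Sham was -1.11 (95% counting interval -1.94 to -0.35) in CD4 T cells, with 39 and 23 UMIs. In CD8 T cells it was 3.83 (2.23 to 7.22), with 2 and 66 UMIs. Genes of myeloid and other lineages were also higher in the TBI sum of CD8 T cells, with 2 and 108 UMIs of Fcer1g, 0 and 22 of Clec10a, 3 and 26 of Napsa and 1 and 58 of Mgp, and Lgals3 was seen in 24.3% and 27.0% of macrophages. Their part in the result was not tested. With 1 library in each group, the difference between the classes was not tested.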

How the results depend on the processing

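No paired analysis was possible because each group had 1 library and the only shared replicate number is 1. Leaving out a library left no residual degrees of freedom, so those fits were not made. The ratio within each library kept the direction of all 15 genes called between CD4 and CD8 T cells. These genes were called from the same libraries, so that agreement is no independent check. The cause of the shifts below was not tested. With Cd4 alone as the positive gene, the class held 38 Sham cells (1.86% of filtered cells) and 35 TBI cells (0.928%), and after thinning to 1000 UMIs before the gate 39 (2.36%) and 35 (1.08%). Without the limits on the 6 negative genes the TBI share was 2.89%. Under the main rule, members made up 40.5% (Sham) and 32.6% (TBI) of cells with at least 2 CD3 UMIs. Genes with a log2 ratio of TBI over Sham of at least 1 and at most -1 numbered 452 and 324 at a minimum of 10 UMIs, 7 and 7 at 100, 43 and 77 with Cd4 alone (22 and 25 of them among the main 77 and 50), and 22 and 32 without cells with another lineage marker (4 and 12 among the main). Irf8 reversed to -0.026 with Cd4 alone and to -0.27 without other-lineage cells. With Cd4 alone the list medians were -0.93 (Treg), -0.36 (Th1, main 0.23), -3.91 (Th2), -0.086 (cytotoxic, reversed), -0.24 (GIMAP, reversed) and -0.49 (early response). Without other-lineage cells they were -1.02 (Treg), 0.40 (interferon-induced) and -1.71 (cell cycle), as a mean over cells 0.40 (cell cycle, main -0.47), and at a minimum of 30 UMIs -2.30 (Th2). Against CD8 T cells, RLE scaling gave 5 genes higher, totals alone 3 lower, DESeq2 0 and 0, no filter 42 and 44, a filter of 50 UMIs 1 and 2, a fit of the 2 classes alone 40 and 38, no other-lineage cells 14 and 11, Cd4 alone 10 lower, and no Foxp3 cells 5 higher. Against type 17 or γδ lymphocytes, DESeq2 gave 167 and 184, a filter of 50 UMIs 295 lower, no other-lineage cells 102 and 109, and CD3 cells alone 164 and 138. Against Il1rl1 cells, DESeq2 gave 177 and 152, the 2 classes alone 962 lower, no other-lineage cells 170 and 155, and Gata3 cells alone 268 and 200. List genes in at least 10% of members numbered 119 (Sham) and 115 (TBI) after thinning and 115 and 111 with at least 2 UMIs. For naive genes alone, effector genes alone, both and neither, thinned Sham cells gave 9.84%, 62.3%, 14.8% and 13.1%, and thinned TBI cells gave 56.6%, 12.0% and 24.1% for the last 3. With at least 2 UMIs, naive alone was 0%, effector alone 68.8% and both 25% in Sham, and effector alone 65.1% and both 26.7% in TBI. With Cd4 alone, naive alone was 0% in Sham, and effector alone 54.3% and both 34.3% in TBI.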
